A study of Mus musculus with 12 samples.

Results

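Retinoic acid is a small signalling molecule that cells make from vitamin A, and 9 genes that bind, make, break down or sense it were followed here in neurons of the mouse pontine nucleus. These were Crabp1, Crabp2, Aldh1a2, Cyp26b1, Rara, Rarb, Rarg, Rxra and Rxrg. They were taken by symbol from a count table of 23079 genes, which held all 9. Of these, 7 passed the filter on low counts and were among the 14732 genes tested. Aldh1a2 and Rxrg did not pass and are given as counts only.

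The pontine nucleus carries cortical input on to the cerebellum, and its neurons are born in the rhombic lip of the hindbrain. All libraries came from CD-1 embryos of stage E18.5, late in gestation, from genetically labelled neurons that were dissected and sorted by fluorescence. The reference group was labelled Math1tdTomato (n = 6), and the other groups were Hoxa5tdTomato (n = 3) and Math1Hoxa5-IRES-GFP (n = 3). Math1 is a rhombic lip gene, and Hoxa5 is a homeobox gene of the posterior hindbrain and spinal cord. The column names add creErt2 to 3 references, tdT to the other 3, cre to Hoxa5tdTomato, and Cag and lsl to the Hoxa5 of Math1Hoxa5-IRES-GFP. From those words alone, the creErt2 references were set beside Hoxa5tdTomato as set 1 and the tdT references beside Math1Hoxa5-IRES-GFP as set 2. The labels do not say how many embryos gave a library, when recombination was started, or whether replicates came from separate animals, so the p-values measure the spread between these libraries.

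Total counts were 9973484 to 13302076 per library in set 1 and 22355961 to 29820776 in set 2. Sequencing depth differs between the sets throughout and cannot be separated from them. Hoxa5 checked the labels. It was measured at 119 to 221 CPM (counts relative to the library size, scaled by TMM) in Hoxa5tdTomato and at 4.35 to 32.2 CPM in the references, a log2 difference of 3.46 ± 0.59 (SE; adjusted p = 0.00712, edgeR). The call was lost within set 1 (3.53 ± 0.80, adjusted p = 0.0698) and without replicate 2 of Hoxa5tdTomato (adjusted p = 0.0693). The libraries labelled Math1Hoxa5-IRES-GFP held 9.73, 16.8 and 81.9 CPM, of which only replicate 3 lay above all references (log2 1.35 ± 0.59, adjusted p = 0.255), and the Hoxa5 row checks that label only in part. That replicate also had the fewest genes with a count (13074, against 14779 to 16290 in the other 11 libraries). Hoxa5tdTomato carried more counts of blood vessel and meningeal marker genes than the references, with values given beside the results.

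Cells turn retinol into retinal and then into retinoic acid with retinaldehyde dehydrogenases such as Aldh1a2, and CYP26 enzymes oxidise and inactivate it. CRABP proteins bind retinoic acid in the cytoplasm. In the nucleus it binds retinoic acid receptors (RARs), which sit on DNA as heterodimers with retinoid X receptors (RXRs) and switch target genes, among them Rarb, the Cyp26 genes and Hox genes of the hindbrain.

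In the references, the order of levels per gene length was led by Crabp1. Crabp1 stood at 250.2 ± 134 RPKM (CPM per kilobase of gene length; SD, n = 6). Cyp26b1 followed at 4.46 ± 1.62 RPKM, Rarb at 4.22 ± 1.59 RPKM and Rxra at 3.03 ± 1.17 RPKM. The order of these 3 differed between the kinds of reference. With creErt2 (n = 3) Rarb stood at 5.27 ± 1.05 RPKM and Cyp26b1 at 4.95 ± 1.36 RPKM, within 1 SD of each other, and Rxra lay lower at 2.24 ± 0.61 RPKM. With tdT (n = 3) Cyp26b1 at 3.97 ± 1.995 RPKM, Rxra at 3.82 ± 1.09 RPKM and Rarb at 3.17 ± 1.39 RPKM lay within 1 SD of each other. Crabp2 at 1.36 ± 1.35 RPKM and Rara at 1.17 ± 0.54 RPKM (n = 6) did not differ beyond their spread. Rarg at 0.266 ± 0.297 RPKM, Rxrg at 0.172 ± 0.315 RPKM and Aldh1a2 at 0.0588 ± 0.144 RPKM formed the low end, each with an SD above its mean. The plot of CPM by library shows all 9 genes in the 4 groups of columns.

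**Figure D1:**
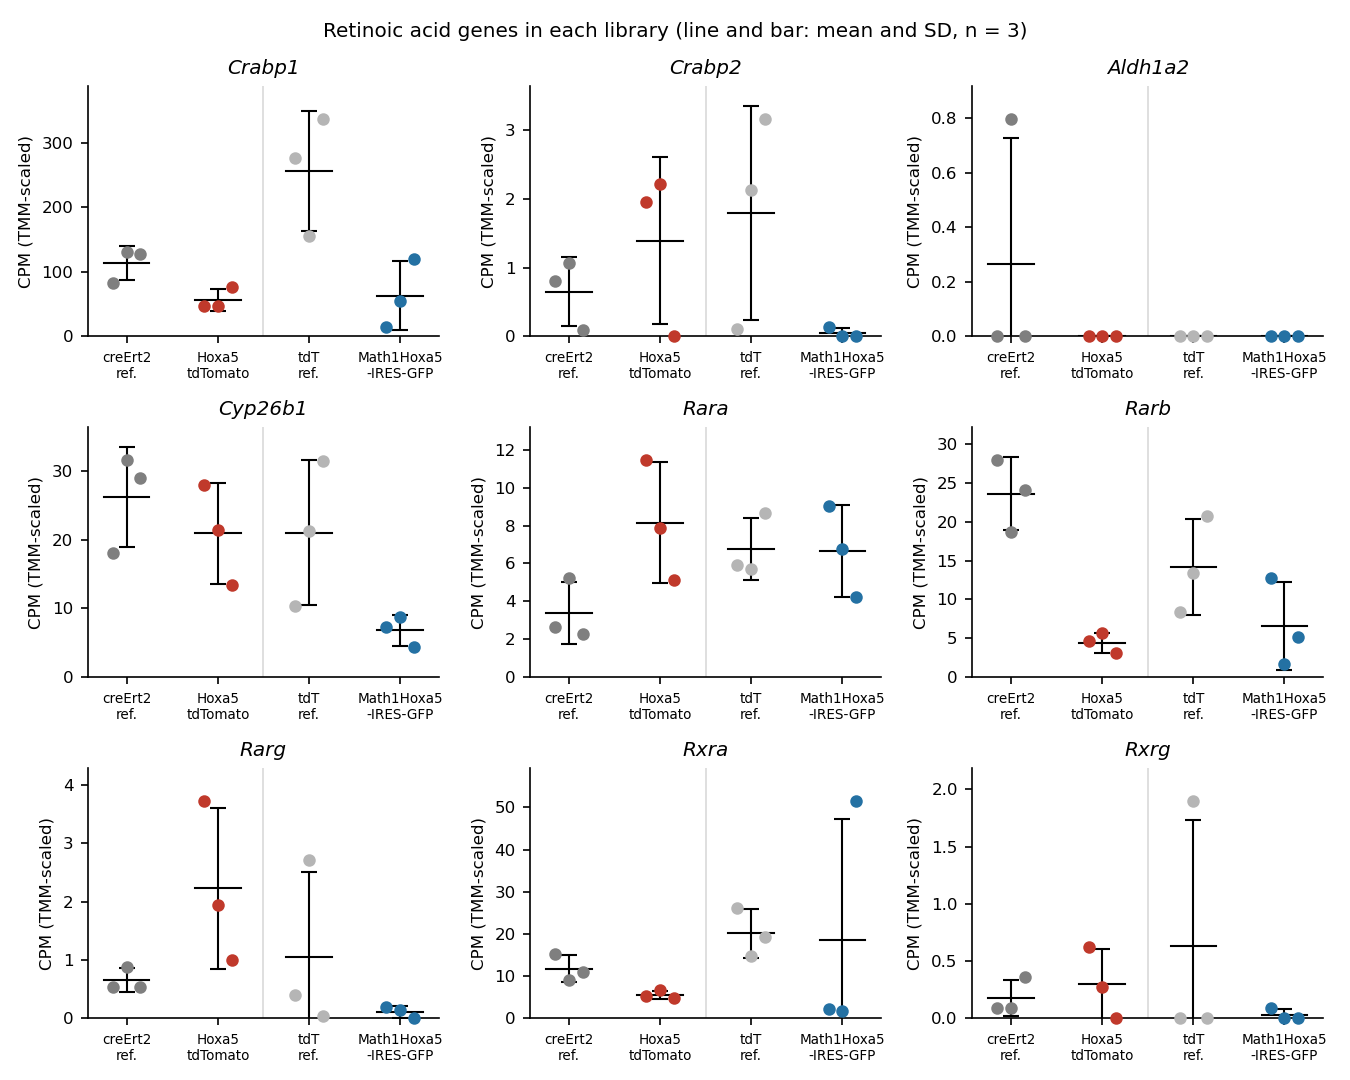
Each panel plots 1 gene, with TMM-scaled CPM from 0 on a linear y axis and the 4 groups of 3 libraries on the x axis; points are libraries, the line is the mean and the bar the SD. Rarb in Hoxa5tdTomato (3.11 to 5.65 CPM) and Cyp26b1 in Math1Hoxa5-IRES-GFP (4.41 to 8.77 CPM) lay below every reference, as did 6.93% and 3.27% of all tested genes in these comparisons, and the 51.6 CPM of Rxra in 1 Math1Hoxa5-IRES-GFP library lay far above the 2.14 and 1.62 CPM of the other 2.

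Few of these genes passed the test in any comparison. In Hoxa5tdTomato against all 6 references, 0 of the 7 tested genes passed an adjusted p of 0.05 with edgeR, where 1.73% of all tested genes did. At an unadjusted p under 0.05 there were 2, Crabp1 and Rarb, and DESeq2 called 1, Rarb. Their median log2 difference was -0.18, against 0.00 over all tested genes. In Math1Hoxa5-IRES-GFP against the same references, 1 of 7 passed, Cyp26b1, which was lower, where 1.84% of all tested genes passed and 0.543% were lower. Their median was -1.55, with 2 of 7 positive, against -0.00 over all genes. Both comparisons share the 6 references. Between the 2 Hoxa5 groups, 0 of 7 passed with edgeR (3.35% of all genes), 3 had an unadjusted p under 0.05 (Crabp2, Rarg and Cyp26b1) and DESeq2 called 2 (Rarg and Cyp26b1).

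Within the sets none of these genes passed with edgeR. The counts were 0 of 7 for Hoxa5tdTomato against the creErt2 references (0.557% of all genes passed) and 0 of 7 for Math1Hoxa5-IRES-GFP against the tdT references (0.862%). At an unadjusted p under 0.05 there were 1 in set 1 (Rarb) and 3 in set 2 (Crabp1, Crabp2 and Cyp26b1), and DESeq2 called 1 in each, Rarb and Cyp26b1. In set 2 all 7 fitted differences were below 0, with a median of -1.62 against 0.02 over all genes. Among them Rara at -0.02 and Rxra at -0.13 changed sign in some fits without 1 library. Those of Crabp2 and Rarg rested on 3 and 7 counts in Math1Hoxa5-IRES-GFP. In set 1 the median was -0.33. Between the creErt2 and tdT references, 0 of 7 passed (1.34%), 1 had an unadjusted p under 0.05 (Crabp1), DESeq2 called 0, and the median was -0.77. The difference between the changes of both sets, tested as an interaction, called 0 of 7 and 0.00% of all genes with edgeR, with 2 at an unadjusted p under 0.05 (Crabp2 and Rarg) and 0 called by DESeq2.

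**Figure D2:**
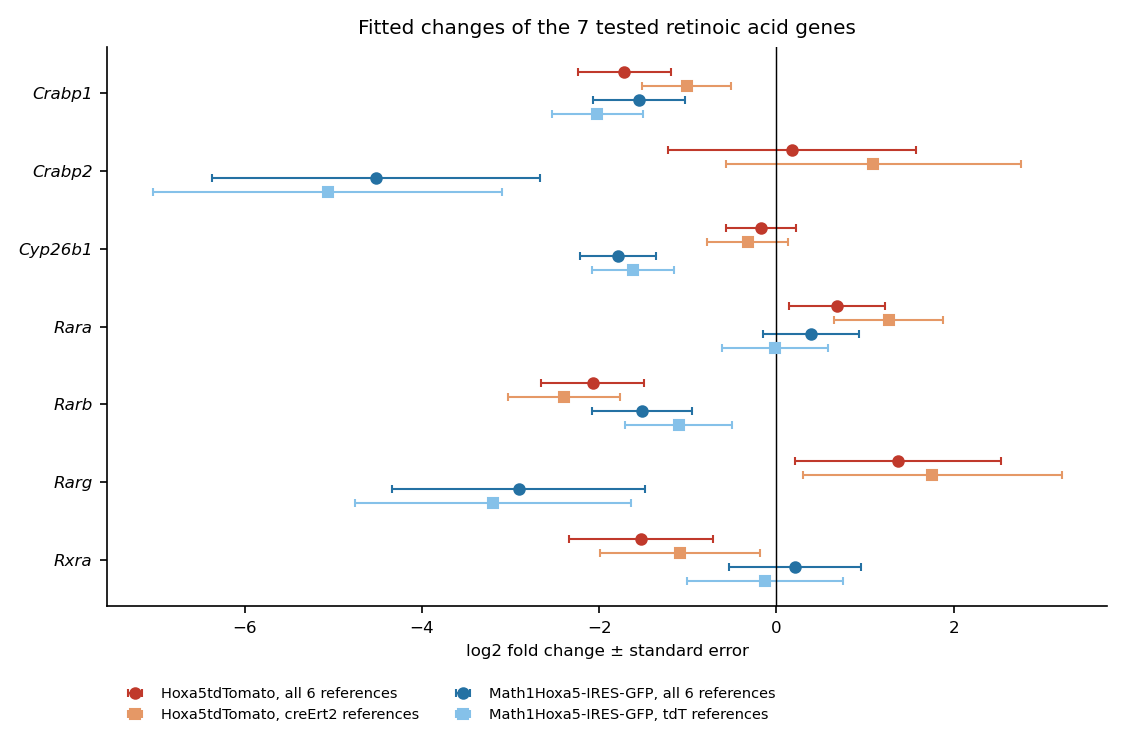
The x axis is the fitted log2 difference with its standard error for the 7 tested genes (y axis); circles are against all 6 references and squares against the references of the same set. Rarb in Hoxa5tdTomato sits near -2.07 and -2.40, and the wide bars of Crabp2 and Rarg belong to genes with few counts.

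Crabp1, a cytoplasmic carrier that hindbrain neurons are known to express, was the most abundant of the 9 and had lower values in Hoxa5tdTomato than in any reference. It lies on chromosome 9 (54764748 to 54773110, GRCm38.p6, as for all positions). The creErt2 references held 83.0, 130.4 and 128 CPM, and the tdT references 276.5, 156 and 338 CPM. Hoxa5tdTomato held 46.7, 46.7 and 76.0 CPM. Every Hoxa5tdTomato library lay below every reference, as was so for 6.93% of all tested genes. The log2 difference was -1.72 ± 0.53, which did not pass (adjusted p = 0.112, edgeR), and within set 1 it was -1.01 ± 0.50 (adjusted p = 0.602). Without replicate 1 or replicate 3 of Math1Hoxa5-IRES-GFP, which enter the estimate of the spread, the difference from all references passed, at adjusted p of 0.0373 and 0.0309.

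Math1Hoxa5-IRES-GFP held 14.1, 55.5 and 120.3 CPM of Crabp1, a wide spread in which replicate 3 reached the level of the creErt2 references. Against all references the log2 difference was -1.55 ± 0.52 (adjusted p = 0.139). Against the tdT references it was -2.02 ± 0.51 (adjusted p = 0.0849), with every library below those references (so for 6.46% of all genes). Without replicate 3 the difference within the set was -2.88 ± 0.45 (adjusted p = 0.0016) and against all references -2.42 ± 0.54 (adjusted p = 0.0224). With all libraries and no filter on low counts the difference within the set also passed, at -2.03 ± 0.43 (adjusted p = 0.0141). The references themselves did not overlap, the creErt2 libraries being lower (so for 12.0% of all genes), with a log2 difference of -1.17 ± 0.50 (adjusted p = 0.329).

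Crabp2, the related carrier that hands retinoic acid to nuclear receptors, had few counts. It lies on chromosome 3 (87948693 to 87953372). References held 0.0905 to 3.17 CPM, and Hoxa5tdTomato held 1.96, 2.22 and 0 CPM. In Math1Hoxa5-IRES-GFP the 3 libraries held 3 counts in all, at 0.140, 0 and 0 CPM. References were 29.0-fold higher (9.71 to 142, an exact binomial interval at the 0.95 level that covers counting error only) and the tdT references 35.8-fold (12.0 to 176). Of the 146 counts in the references, 74 came from replicate 3 of the tdT references, and all 3 counts of Math1Hoxa5-IRES-GFP came from its replicate 1. Without that tdT library the folds were 18.3 (6.00 to 90.6) and 21.2 (6.84 to 106). The groups overlapped in value, since 1 creErt2 reference and 1 tdT reference held 0.0905 and 0.107 CPM. The fitted difference was -4.52 ± 1.85 on the log2 scale and did not pass (adjusted p = 0.222). It ran from -7.39 without replicate 1 of Math1Hoxa5-IRES-GFP to -3.97 without replicate 3 of the tdT references.

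Aldh1a2, a retinoic acid synthase known from the embryonic mesoderm and meninges (chromosome 9, 71215789 to 71296243), was found in 1 library. Replicate 2 of the creErt2 references held 9 counts (0.799 CPM), and the other 11 libraries held 0, which allows up to 0.107 to 0.274 CPM at a floor of 3 counts. No difference between groups was detectable at this depth. The 3 Hoxa5tdTomato libraries were at 0 while their summed meningeal markers stood at 101 to 153 CPM (9 to 10 of 12 genes with a count, Dcn and Slc6a13 at 0 in all 3), against 7.55 to 30.7 CPM in the references.

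Cyp26b1, which inactivates retinoic acid (chromosome 6, 84571414 to 84593908), fell in Math1Hoxa5-IRES-GFP. The references held 18.0, 31.6 and 29.0 CPM with creErt2 and 10.4, 21.2 and 31.5 CPM with tdT. Math1Hoxa5-IRES-GFP held 7.31, 8.77 and 4.41 CPM. All 3 lay below all 6 references, as was so for 3.27% of all tested genes, but the gap between 8.77 and 10.4 CPM was small. The mean was 6.83 ± 2.22 CPM (SD, n = 3) against 23.6 ± 8.57 CPM (n = 6), a log2 difference of -1.79 ± 0.43 or 3.45-fold lower (adjusted p = 0.0389, edgeR).

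This call was close to the threshold. Within set 2 the Cyp26b1 difference was -1.62 ± 0.46 with an adjusted p of 0.137, and 9 of the 12 fits that leave out 1 library lost the call, at adjusted p of 0.0513 to 0.0911 in edgeR. These left out any creErt2 reference, replicate 1 or 2 of Hoxa5tdTomato, replicate 2 or 3 of the tdT references, or replicate 1 or 3 of Math1Hoxa5-IRES-GFP. Over all alternatives the adjusted p ran from 0.00062 to 0.318 and the log2 difference from -2.00 to -1.52, negative in each. Hoxa5tdTomato held 28.0, 21.3 and 13.4 CPM of Cyp26b1, inside the range of the references (log2 -0.18 ± 0.39, adjusted p = 0.903). It lay above Math1Hoxa5-IRES-GFP in every library (so for 14.7% of all genes), by a log2 of 1.61 ± 0.46 (adjusted p = 0.0589; 0.0457 without replicate 1 of the tdT references), and the test of the difference between the changes of both sets gave 1.29 ± 0.64 (adjusted p = 0.649).

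Among the receptor genes, Rarb, itself a known target of retinoic acid, lay below every reference in Hoxa5tdTomato. The creErt2 references held 28.0, 18.7 and 24.1 CPM and the tdT references 8.41, 13.4 and 20.7 CPM. Hoxa5tdTomato held 4.62, 5.65 and 3.11 CPM, below all 6 references (so for 6.93% of all tested genes). The mean of 4.46 ± 1.28 CPM stood against 18.9 ± 7.11 CPM, a log2 difference of -2.07 ± 0.58 that did not pass with edgeR (adjusted p = 0.0845). Within set 1 it was -2.40 ± 0.63 (adjusted p = 0.136). DESeq2 called both, at adjusted p of 0.00756 and 0.00947, and edgeR called the first without replicate 1, 2 or 3 of Math1Hoxa5-IRES-GFP (adjusted p = 0.0439, 0.0391 and 0.0368) and the second without replicate 2 or 3 (0.0441 and 0.031). Over the 18 alternatives of the first comparison the difference ran from -2.42 to -1.87.

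Rarb in Math1Hoxa5-IRES-GFP was spread over 12.8, 1.75 and 5.21 CPM. Replicates 2 and 3 lay below all references, and replicate 1 lay inside their range. The log2 difference was -1.52 ± 0.56 against all references (adjusted p = 0.181) and -1.10 ± 0.60 within set 2 (adjusted p = 0.444). Without replicate 1 the difference from all references was -2.43 ± 0.61 (adjusted p = 0.0406). Between the 2 Hoxa5 groups Rarb differed by -0.56 ± 0.61 on the log2 scale (adjusted p = 0.638), a difference that turned to 0.36 without replicate 1 of Math1Hoxa5-IRES-GFP. The lowest Rarb library of all was replicate 2 of Math1Hoxa5-IRES-GFP.

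Rarb lies on chromosome 14 (GRCm38.p6, 16430839 to 17082331), and its shorter transcripts start at an inner promoter that is known for a retinoic acid response element, a direct repeat of 2 half-sites 5 bases apart. The RefSeq promoter table held 14 windows for 8 of the 9 genes, each from 250 bases before to 50 after a start. Both strands were searched for the half-sites AGGTCA or AGTTCA or GGGTCA or GGTTCA in direct repeats spaced by 1, 2 or 5 bases. Rarb alone among the 8 held such a repeat. It is shown because this element is the best known response element of the gene, 5′ to 3′ on the minus strand at chr14:16575506-16575535, with the half-sites in capitals.

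Rarb: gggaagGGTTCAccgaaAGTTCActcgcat

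The repeat runs from 53 to 37 bases before the RefSeq start. Of 32851 promoter windows, 32 (0.0974%) held a repeat with this spacing, 0.222% held 1 spaced by 1 base, 0.268% held 1 spaced by 2, and 43.7% held at least a half-site. The match describes the letters only, and the counts are per gene and do not separate transcripts from this start from those of the longer Rarb transcripts.

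In GENCODE M21, 1793 of the 5265 exon bases of Rarb (34.1%) are shared with an exon of Top2b, a topoisomerase gene on the opposite strand, and 227 bases (4.31%) with the antisense gene Gm48162. The strand setting of the counting is not given in the sources used here, so whether reads in the shared bases were counted for Rarb is not known. The deposited length of Rarb is 4472 bases, and how much of the overlap it holds is not known either. In RefSeq the genes that overlap Rarb are the pseudogenes Gm46442, Gm19061, Tpi-rs9 and Gm18078, and Top2b is not among them. Top2b was abundant, at 932 to 1202 CPM in the references, 701.5 to 740 CPM in Hoxa5tdTomato and 908 to 1121 CPM in Math1Hoxa5-IRES-GFP. Top2b fell in Hoxa5tdTomato by 0.59 ± 0.13 on the log2 scale (adjusted p = 0.0241), a smaller difference than that of Rarb. Within set 1 it was -0.47 ± 0.12 and did not pass (adjusted p = 0.104), and the call was lost when any 1 library of Hoxa5tdTomato or of the tdT references was left out (adjusted p = 0.0531 to 0.176) and with library size alone (0.0512). Its part in the Rarb values was not tested.

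Rara, the widely expressed receptor (chromosome 11, 98927800 to 98974942), had no library of Hoxa5tdTomato below all references. The references held 2.66, 5.24 and 2.26 CPM with creErt2 and 5.92, 5.70 and 8.66 CPM with tdT, so the 2 kinds of reference did not overlap (creErt2 lower, so for 12.0% of all genes; log2 -0.99 ± 0.61, adjusted p = 0.547). Hoxa5tdTomato held 11.5, 7.88 and 5.12 CPM, a log2 difference of 0.68 ± 0.54 from all references (adjusted p = 0.639) and 1.27 ± 0.61 within set 1 (adjusted p = 0.585). Math1Hoxa5-IRES-GFP held 9.03, 6.74 and 4.21 CPM and overlapped both kinds of reference (log2 0.39 ± 0.54, adjusted p = 0.764, and -0.02 ± 0.60 within set 2). In RefSeq, Rara overlaps the protein-coding gene Gm46294 and the small nuclear RNA gene Gm22061.

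Rarg, the third receptor (chromosome 15, 102234938 to 102257522), was rare. Hoxa5tdTomato held 3.73, 1.95 and 1.01 CPM, above the 0.533, 0.888 and 0.543 CPM of the creErt2 references in every library (so for 12.7% of all genes). The tdT references held 0.392, 2.72 and 0.0429 CPM, and Math1Hoxa5-IRES-GFP 0.186, 0.135 and 0 CPM from 7 counts in all. The log2 differences from all references were 1.38 ± 1.16 (adjusted p = 0.669) and -2.91 ± 1.43 (adjusted p = 0.318). Between the 2 Hoxa5 groups, whose libraries did not overlap (Hoxa5tdTomato higher, so for 14.7% of all genes), it was 4.28 ± 1.60 (adjusted p = 0.129 with edgeR, 0.0409 with DESeq2). Libraries of these groups differ in set and depth, and the test of the difference between the changes of both sets gave 4.96 ± 2.12 (adjusted p = 0.587).

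Summed per length, the RAR genes had a different make-up in Hoxa5tdTomato. Rarb made up 73.7 to 88.9% of RAR RPKM in the creErt2 references and 55.9 to 69.8% in the tdT references. In Hoxa5tdTomato it made up 21.4 to 34.3%, and in Math1Hoxa5-IRES-GFP 57.2, 19.7 and 54.6%. Rara held the largest share in every Hoxa5tdTomato library, at 49.2 to 54.6%, while its share was 8.58 to 40.5% in the references and 41.6 to 78.2% in Math1Hoxa5-IRES-GFP. Rarg added 14.3 to 24.0% in Hoxa5tdTomato, up to 16.4% in the references and up to 2.11% in Math1Hoxa5-IRES-GFP. The sum of the RAR genes was 2.19 to 4.84 RPKM in Hoxa5tdTomato, 5.001, 1.99 and 2.14 RPKM in Math1Hoxa5-IRES-GFP, 5.66 to 7.03 RPKM in the creErt2 references and 3.37 to 6.65 RPKM in the tdT references. These shares are a description of the same counts and were not tested. The Rarb overlap with Top2b in GENCODE M21 may bear on them, which was not tested.

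**Figure D3:**
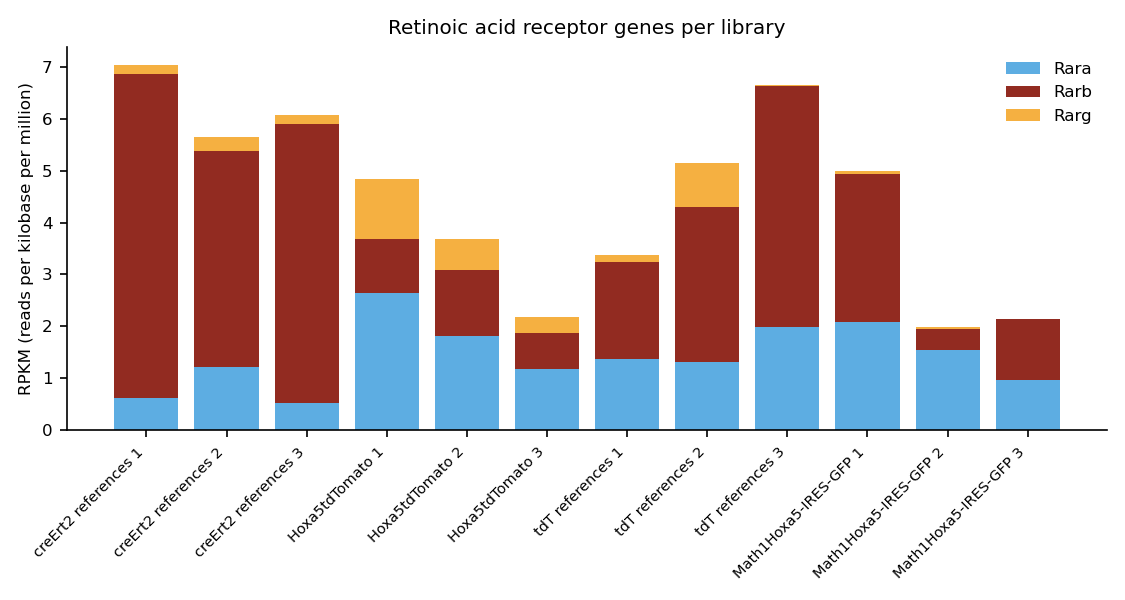
Stacked bars from 0 show the RPKM (y axis) of Rara, Rarb and Rarg in each of the 12 libraries (x axis, numbered as in the column names). Rarb is the largest piece in all 6 references (55.9 to 88.9%), and Rara in all 3 Hoxa5tdTomato libraries (49.2 to 54.6%).

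Rxra, an RXR that pairs with RARs in many tissues (chromosome 2, 27676445 to 27763319), lay below all references in Hoxa5tdTomato and was split in Math1Hoxa5-IRES-GFP. The references held 15.4, 9.06 and 11.0 CPM with creErt2 and 26.2, 14.8 and 19.4 CPM with tdT. Hoxa5tdTomato held 5.25, 6.60 and 4.76 CPM, below all references (so for 6.93% of all genes), with a log2 difference of -1.53 ± 0.82 (adjusted p = 0.418). The fit estimates 1 spread per gene over all groups. Without replicate 3 of Math1Hoxa5-IRES-GFP the same difference had a standard error of 0.40 and an adjusted p of 0.0377.

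Math1Hoxa5-IRES-GFP held 2.14 and 1.62 CPM of Rxra in replicates 1 and 2 and 51.6 CPM in replicate 3 (46, 36 and 1029 counts). Replicates 1 and 2 were the lowest of all 12 libraries and replicate 3 the highest. With all 3 the log2 difference from all references was 0.21 ± 0.75 (adjusted p = 0.921) and within set 2 it was -0.13 ± 0.88 (adjusted p = 0.972). Without replicate 3 the differences were -3.08 (adjusted p = 0.0033) and -3.42 ± 0.52 (adjusted p = 0.00123), and both passed. Within set 2 the sign also turned without replicate 1 of the tdT references (0.12) and without replicate 1 or 2 of Math1Hoxa5-IRES-GFP (0.40 and 0.42). The same library held the highest Hoxa5 and Crabp1 of its group and the lowest Cyp26b1.

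Rxrg, an RXR of restricted expression (chromosome 1, 167598362 to 167639623), gave 61 counts over the 12 libraries. Of these, 42 came from replicate 2 of the tdT references (1.90 CPM), and the other references held 0 to 0.362 CPM. Hoxa5tdTomato held 0.622, 0.269 and 0 CPM and Math1Hoxa5-IRES-GFP 0.0931, 0 and 0 CPM. With 2 counts in Math1Hoxa5-IRES-GFP the references were 14.3-fold higher (3.74 to 121, counting error only), and 2.25-fold (0.402 to 22.8) without the library with 42 counts. Rxrb, the other RXR gene, stood at 9.68 ± 2.48 CPM in the references, 11.2 ± 2.72 CPM in Hoxa5tdTomato and 10.2 ± 3.50 CPM in Math1Hoxa5-IRES-GFP. Per length, Rxrb at 3.495 ± 0.897 RPKM and Rxra at 3.03 ± 1.17 RPKM in the references did not differ beyond their spread.

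Markers of other cell types moved with Hoxa5tdTomato, the group in which Crabp1, Rarb and Rxra were below all references (so for 6.93% of all genes). Summed endothelial markers were 111 to 218 CPM there (11 to 12 of 12 genes with a count) against 1.14 to 30.5 CPM in the references. Pericyte and smooth muscle markers were 118 to 238.5 CPM (10 of 10 genes) against 2.07 to 28.0 CPM. Microglial markers were 60.9, 7.81 and 11.7 CPM (5 to 9 of 9 genes) against 0.321 to 13.1 CPM, so only replicate 1 lay above the references. Pontine neuron markers, which were present in every library, summed to 7017 to 7486 CPM against 9967 to 13890 CPM. Math1Hoxa5-IRES-GFP lay at 9053 to 13390 CPM for the neuron markers and 0.201 to 40.5 CPM for the endothelial markers. Other lists lay above every reference in some libraries of that group, in which Cyp26b1 was lower. Astrocyte and radial glia markers summed to 1103, 1440 and 1163 CPM (8 to 10 of 10 genes) against 799.5 to 1151 CPM in the references. Gene by gene most did not rise. Of 9 tested against all references, 3 fitted differences were above 0, and the median log2 was -0.70. In Hoxa5tdTomato these markers summed to 1106 to 1517 CPM, with 6 of 9 above 0 and a median of 0.40. The 40.5 CPM of endothelial markers in replicate 2 of Math1Hoxa5-IRES-GFP also lay above the references. Cholinergic and motor neuron markers summed to 169, 232 and 72.5 CPM (2 to 4 of 6 genes) against 70.5 to 98.3 CPM in the references. Meningeal and pericyte markers reached 65.9 and 66.1 CPM in replicate 2, where the references reached 30.7 and 28.0 CPM. GABAergic and glycinergic markers were 431 CPM in replicate 3 (2 of 8 genes), where the references reached 313 CPM. Over the whole group, 2 of the 6 tested genes of that list had fitted differences above 0, with a median log2 of -2.41. The part of these markers in the retinoic acid genes was not tested, and in such sorted pools fewer cells of a type and less RNA per cell cannot be told apart.

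Beyond the 9 genes, 101 other genes of the pathway were in the table and 70 were tested. In Hoxa5tdTomato against all references 3 rose and 3 fell, where 1.73% of all tested genes passed in either direction. Those that rose include Hoxa5, for which the neurons were labelled. In Math1Hoxa5-IRES-GFP against all references 0 rose and 1 fell (1.84% of all genes passed). Between the Hoxa5 groups 3 were higher and 4 lower in Hoxa5tdTomato (3.35%). Within the sets the counts were 2 higher and 0 lower in set 1 (0.557%), and 0 higher and 1 lower in set 2 (0.862%). The median log2 difference of the 70 was 0.02 and -0.13 against all references.

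**Figure D4:**
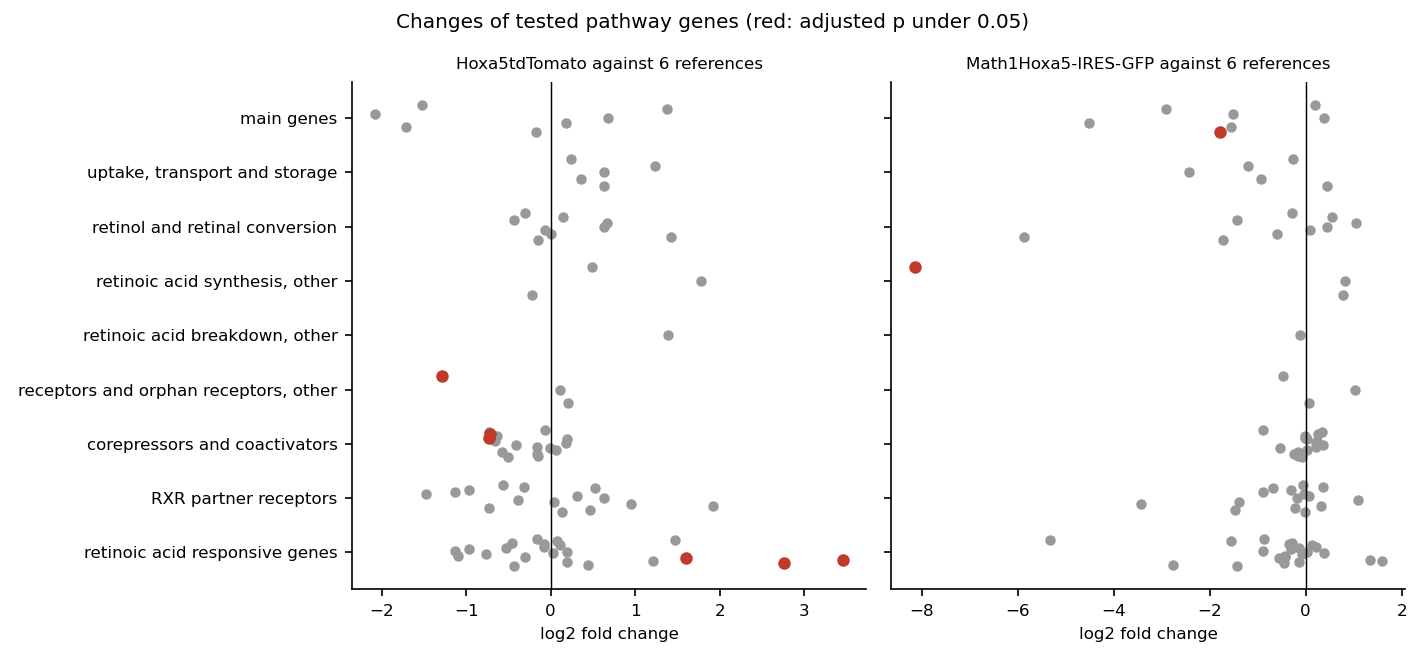
Each point is a tested gene, with its fitted log2 difference from the 6 references on the x axis and its list on the y axis; red points passed an adjusted p of 0.05. Hoxa4, Hoxa5 and Hoxb5 are the red points to the right at 1.60 to 3.46, and the far left point of Math1Hoxa5-IRES-GFP is Cyp1b1, at 0 counts in that group, whose fitted size depends on the prior count.

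Retinoid supply showed 1 call. Cyp1b1, a cytochrome P450 that can form retinoic acid from retinol, was at 0 counts in all 3 Math1Hoxa5-IRES-GFP libraries. It held 0.285 to 3.73 CPM in the references and 1.68 to 5.16 CPM in Hoxa5tdTomato. At a floor of 3 counts over the group, the references were at least 42.6-fold higher (adjusted p = 0.0156, edgeR), the tdT references at least 43.9-fold (adjusted p = 0.043) and Hoxa5tdTomato at least 58.5-fold (adjusted p = 0.0255). These folds come from summed counts and leave out the spread between libraries. The first call held in all 12 fits that leave out 1 library but was lost with a replicate block (adjusted p = 0.123, edgeR). The second was lost in 10 of 12 (adjusted p = 0.0558 to 0.141). The third was lost when any 1 Hoxa5tdTomato library was left out (adjusted p = 0.0792 to 0.133). Tested as the difference between the changes of both sets, it did not pass either (adjusted p = 0.373, edgeR). It was also lost with the block (0.72). Cyp1b1 is also a gene of pericytes and other vessel cells, and the pericyte markers of Math1Hoxa5-IRES-GFP summed to 5.42 to 66.1 CPM. Their part in the Cyp1b1 values was not tested.

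The other supply genes did not pass in any comparison. Among 5 synthesis genes, Aldh1a1 led with Cyp1b1 and Aldh1a3, at 4.34 ± 4.22, 2.03 ± 1.28 and 0.295 ± 0.264 CPM in the references (n = 6). Among 12 genes of uptake, transport and storage, 5 were tested. Fabp5, a fatty acid binding protein that can also carry retinoic acid, stood at 69.9 ± 23.5 CPM, and the retinol-esterifying enzymes Dgat1 and Lrat at 31.2 ± 4.59 and 35.3 ± 14.0 CPM. Among 19 genes of retinol and retinal conversion, 9 were tested. Per gene length Adh5 led at 43.4 ± 11.5 RPKM. Rdh14 at 8.09 ± 2.04 RPKM and Rdh13 at 7.72 ± 1.88 RPKM followed and did not differ beyond their spread. In CPM these 3 stood at 66.6 ± 17.6, 11.9 ± 3.00 and 30.2 ± 7.35. Of the breakdown genes besides Cyp26b1, Cyp2s1 stood at 7.83 ± 4.54 CPM, Cyp26a1 at 0.0571 ± 0.140 CPM from 8 counts in the tdT references, and Cyp26c1 at 0 in all references.

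Among the other nuclear receptors and the cofactors, the calls against all references were downward, in Hoxa5tdTomato. Rorb, an orphan receptor of the ROR family, held 23.3, 12.1 and 14.4 CPM there against 31.4 to 61.1 CPM in the references. It fell by 1.28 ± 0.32 on the log2 scale (adjusted p = 0.0498) and did not pass within set 1 (-1.02 ± 0.33, adjusted p = 0.28). Of 16 corepressors and coactivators, all tested, 2 fell in Hoxa5tdTomato, where 1.73% of all genes passed in either direction. Crebbp, an acetyltransferase coactivator, fell by 0.72 ± 0.17 (adjusted p = 0.036) and Med1, a Mediator subunit, by 0.73 ± 0.18 (adjusted p = 0.0464). Neither passed within set 1, at -0.46 ± 0.13 (adjusted p = 0.189) and -0.53 ± 0.17 (adjusted p = 0.268). Leaving out 1 library lost the call in 9 of 12 fits for Rorb, 6 for Crebbp and 8 for Med1, in each case when any 1 library of Hoxa5tdTomato or of the tdT references was left out. For Rorb this held for any creErt2 reference too, and for Med1 for replicates 1 and 3. Library size alone lost all 3 calls (adjusted p = 0.084, 0.0602 and 0.115), and RLE factors lost those of Rorb and Med1 (0.0581 and 0.0569).

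Between the Hoxa5 groups, which differ in set, 4 of these cofactors were lower in Hoxa5tdTomato, where 3.35% of all genes passed in either direction. They were Crebbp (-0.99 ± 0.19, adjusted p = 0.0239), Kmt2e (-1.07 ± 0.21, adjusted p = 0.0251), Ncoa2 (-0.77 ± 0.17, adjusted p = 0.0292) and Ncoa6 (-0.91 ± 0.20, adjusted p = 0.0299). None of the 4 passed when any 1 of the 3 Hoxa5tdTomato libraries was left out (adjusted p = 0.0829 to 0.143), where 0, 1 and 1 genes of the whole table passed. Ncoa2 and Ncoa6 also did not pass without replicate 2 of Math1Hoxa5-IRES-GFP (0.0565 and 0.0552). With library size alone Crebbp passed and the other 3 did not. Kmt2e was also lower in the creErt2 than in the tdT references, by 0.61 ± 0.14 on the log2 scale (adjusted p = 0.0433), a call lost in 9 of the 12 fits that leave out 1 library. In the references Kmt2e, Crebbp and Ncoa6 were the most abundant of the list, at 104, 74.9 and 61.9 RPKM. Of 18 other RXR partner receptors, 15 were tested and none passed with edgeR in any comparison. The most abundant were Thra, Nr2c2 and Nr2f1 at 101, 46.8 and 13.1 RPKM. Of the other receptors, Rora stood at 0.842 RPKM.

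Of 34 genes known to respond to retinoic acid, which include Cyp26b1 and Rarb, 25 were tested. In Hoxa5tdTomato 3 rose (Hoxa4, Hoxb5 and Hoxa5) and 0 fell, where 1.73% of all genes passed in either direction. Of the 25 fitted differences, 12 were above 0. Hoxa4, the neighbour of Hoxa5 in its cluster, held 108.5, 128 and 104 CPM there against 4.44 to 22.5 CPM in the references (log2 2.76 ± 0.44, adjusted p = 0.00416). Hoxb5 held 74.9, 71.5 and 60.9 CPM against 13.5 to 39.7 CPM (log2 1.60 ± 0.32, adjusted p = 0.0171). Both also rose within set 1, by 2.89 ± 0.57 (adjusted p = 0.0359) and 1.94 ± 0.37 (adjusted p = 0.0273), while Hoxa5, for which the neurons were labelled, did not pass there (adjusted p = 0.0698). Against all references the Hoxa4 call held under all 18 alternatives, and the Hoxb5 call was lost when any 1 Hoxa5tdTomato library was left out (adjusted p = 0.0685 to 0.119). Within set 1 both calls were lost when any 1 library of that set was left out, and that of Hoxa4 also without replicate 1 or 3 of the tdT references (adjusted p of 0.0524 to 0.159 for Hoxa4 and 0.0666 to 0.17 for Hoxb5).

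In Math1Hoxa5-IRES-GFP the same list had 0 higher and 1 lower, Cyp26b1, where 1.84% of all genes passed in either direction. Hoxa4 was at 9.22, 23.1 and 4.41 CPM (log2 -0.45 ± 0.46, adjusted p = 0.668) and Hoxb5 at 12.9, 14.3 and 19.3 CPM (-0.56 ± 0.34, adjusted p = 0.424). The median of the list was -0.42 there and -0.08 in Hoxa5tdTomato. Among the most abundant genes of the list in the references were Zic1 and Meis1, at 327 and 64.7 RPKM, and neither passed.

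Across the 12 libraries the members did not vary as 1 block. Pearson's r of log2 CPM between pairs of the 7 tested genes ran from -0.416 (Rara with Rarb) to 0.749 (Crabp1 with Rxra), and Crabp2 and Cyp26b1 stood at 0.736. All libraries share the split into sets and depths, and the values are a description. Of 10855 genes compared, those most like Cyp26b1 were B3galt6 (r = 0.920), Tmem192 (0.912) and Gpaa1 (0.906). Crabp1 was most like Zfp503 (0.929), Meis2 (0.926) and Ptchd1 (0.913), of which Meis2 encodes a homeodomain partner of Hox proteins. Rxra was most like Hmgb3 (0.964), Nup155 (0.929) and Drg1 (0.927). Rarb was most like Stt3a (0.917), Golm1 (0.906) and Pcsk2 (0.878), and Rara like Kcna6 (0.881), Robo2 (0.839) and Acsl3 (0.826). The r of Rarb with Top2b was 0.413.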

How the data were processed

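A table with unnormalized read counts of 12 libraries and gene lengths was deposited by the authors; per the labels' protocols, RNA of sorted cells was amplified by SPIA before library preparation. The submitters' processing notes name the build mm10 and bcl2fastq 1.8.4; the aligner, the counter and the strandedness were not given in the sources used here. Genes were kept by filterByExpr (minimum count 10), scaled by TMM and tested with the edgeR 4.0.16 quasi-likelihood F test in R 4.3.3, with 1 mean per group and Benjamini-Hochberg adjustment over 14732 genes (threshold 0.05). The first fit had the 3 label groups, and a second had 4, with the references split by column name. Standard errors come from the fold change and F. RPKM is CPM per kilobase of deposited length. Alternatives were DESeq2 1.42.0, other scalings, no filter, a replicate block and leaving out each library. The test was also run on simulated counts with 1 dispersion for all genes and no difference between the sets. That check does not cover single libraries that stand apart. Members and lists were chosen with earlier results of these data known. Named were all members, listed genes past the threshold, the 3 most abundant of each list, Hoxa5, and the 3 genes most like each member of at least 5 CPM; Top2b and Gm48162 were added after their overlap with Rarb was seen. A gene that this rule names is not reported here.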

Additional observations from a re-analysis of the deposited data

Results flagged for a closer look

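In 3 of the 9 genes, 1 of the 6 references stood apart from the other 5 by more than Dixon's 95% limit. Aldh1a2 was at 0.799 CPM in replicate 2 of the creErt2 references and at 0 in the other references. Rarg was at 2.72 CPM in replicate 2 of the tdT references, and Rxrg was at 1.90 CPM in the same library. For normally distributed values chance alone puts about 1 in 20 groups past this limit. All 3 genes had few counts, to which that rate need not apply. With the other references at 0, any count of Aldh1a2 would have passed the limit.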

How the results depend on the processing

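Of 826 single-gene values under other settings, 769 kept direction and side of the threshold, 20 gained the call, 11 lost it and 26 changed sign; the causes were not tested. With edgeR on all libraries, 255, 271 and 493 genes passed for Hoxa5tdTomato against the references, Math1Hoxa5-IRES-GFP against the references, and between the Hoxa5 groups. The same counts were 622, 831 and 1484 with DESeq2. Within sets the first 2 were 82 and 127. The Hoxa5 groups lie in different sets, and in their place the difference between the changes of both sets called 0. With a replicate block (set and column number) the 3 counts were 72, 77 and 0, and with library size alone the count between the Hoxa5 groups was 142. The block called Crabp1 in Math1Hoxa5-IRES-GFP (-2.35, adjusted p = 0.0441). Between libraries of the same column number, the deviations from group means had r of 0.0152 to 0.0264 in set 1 and -0.0281 to 0.0493 in set 2. Between different numbers r ran from -0.0416 to 0.0179 and from -0.0993 to 0.0945. Deviations from means of 3 libraries cannot decide whether the numbers pair the libraries. DESeq2 called 270 genes within set 1, 558 within set 2, 589 between references and 54 for the difference of both changes, where edgeR called 82, 127, 197 and 0. Members called by DESeq2 were 1, 2, 1 and 1 for Hoxa5tdTomato against all references, between the Hoxa5 groups, within set 1 and within set 2. Within set 2, 0 members passed with edgeR and 1 without a filter (Crabp1). Library size alone put the median of all genes at 0.16, -0.12 and 0.30 (0.00, -0.00 and 0.02 with TMM), and changed the genes higher and lower from 124 and 131 to 170 and 70, from 191 and 80 to 105 and 94, and from 135 and 358 to 110 and 32. RLE factors gave 131 and 100 for the first and 107 and 225 for the last.

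Leaving out each library gave 35 to 728, 190 to 575 and 0 to 1157 genes in the 3 main comparisons, 19 to 364 within set 1, 50 to 365 within set 2, 38 to 784 between references and 0 to 3 for the difference of both changes. Members called ran from 0 to 3, 0 to 2 and 0 to 1 in the main comparisons, 0 to 1 in set 1 and 0 to 2 in set 2. Log2 values that changed sign were, in Hoxa5tdTomato against all references, Crabp2 (-0.33 to 0.76) and Cyp26b1 (-0.44 to 0.0626). In Math1Hoxa5-IRES-GFP they were Rxra against all references (-3.08 to 0.76; -0.13 within the set, -2.04 with the replicate block), Rara (-0.0206 within the set, -0.0533 with the block), and, within set 2, Rxra (-3.42 to 0.42) and Rara (-0.30 to 0.22). Between the Hoxa5 groups they were Crabp1 (-0.64 to 0.70, with 0.17 for library size and 1.33 for the block), Rxra (-2.27 to 1.55, with 0.98 for the block), Rara (-0.0367 to 0.57) and Rarb (-0.997 to 0.36). Between references they were Cyp26b1 (-0.0134 to 0.73) and Rarg (-1.24 to 1.54), and for the difference of both changes Rxra (-1.49 to 2.33). The 26 changes of sign also count a Crabp1 value of 1.01 beside the difference between the Hoxa5 groups. That value is the difference between the changes of both sets, which is another quantity. Depth limits Aldh1a2, Rxrg, Crabp2 and Rarg, whose levels lay near the floor of 3 counts in many libraries.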
